A study of Homo sapiens with 15 samples.

Results

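The genes that changed when the peptide cSNX1.3 was added to EGF were described in MDA-MB-468, an established human breast cancer cell line with a basal-like, triple-negative phenotype and a high level of EGFR. The comparison used 6 of the 15 RNA-seq libraries of the study, 3 of cells given EGF together with cSNX1.3 and 3 of cells given EGF alone, chosen by their labels. The cells of both groups had been serum starved for 12 h and received 10 ng/mL EGF, and the cSNX1.3 group also received 10 μM of the peptide for 12 h. A further group, 3 libraries of cells given EGF with 15 μM erlotinib for the same time, entered the same fit. The other 6 libraries came from MDA-MB-468 cells in which the endogenous EGFR had been knocked down by an IPTG-inducible lentiviral shRNA and a GFP fusion of wildtype (WT) EGFR or of EGFR with a mutated nuclear localization signal (ΔNLS) had been transfected, 3 of each. These cells were given EGF too, and both lines carry the shRNA and the fusion plasmid, so the comparison between them is one of the mutation and of the lines that carry it. The libraries used here do not include one with the control peptide, so an effect of any peptide and an effect of this one cannot be told apart. Nothing in the labels says that the replicates were separate cultures, and the p-values therefore measure the spread between these libraries.

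EGFR is a receptor tyrosine kinase that signals from the plasma membrane through the RAS-ERK, PI3K and STAT pathways. After ligand binding it is internalized, and a fraction of the receptor is moved to the nucleus by retrograde transport, which involves the sorting protein SNX1. cSNX1.3 is a cell-penetrating peptide that interferes with the binding of EGFR to SNX1, and erlotinib is a small-molecule kinase inhibitor. In breast epithelial cells EGFR signalling is known for controlling proliferation, the secretion of proteases, growth factors and matrix proteins, and attachment through integrins and hemidesmosomes.

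The counts on genes summed to between 24297146 and 28462807 per library, and 11 markers of basal-like breast epithelium, all of them counted and led by KRT8, EGFR and KRT5, summed to 18200 to 21700 counts per 1000000 (CPM) with EGF and 22400 to 26600 CPM with cSNX1.3. Of 18 leukocyte markers, 8 including CD3E and LYZ had no count in any of the 6 libraries and 11 had at most 3 counts, and the list summed to 43.2 to 47.3 CPM with EGF and 35.6 to 43.3 CPM with cSNX1.3, most of it from CSF1R, CD14 and ITGAM. Of 8 fibroblast markers DCN and LUM were at 0, and the sum was 18.8 to 21.6 and 22.8 to 23.7 CPM. The 7 endothelial markers summed to 15.4 to 16.1 and 15.6 to 17.6 CPM. EGFR itself was counted at 4886, 4197 and 4950 CPM with EGF and 5664, 6449 and 6122 CPM with cSNX1.3 (log2 fold change 0.38, SE 0.11, edgeR adjusted p = 0.0622), and it was not called. EGFR was called in 5 of 15 alternative settings, by DESeq2 (adjusted p = 0.000989) and by edgeR with no filter on low counts (adjusted p = 0.0418), in the fit of all 15 libraries (0.0258), without both libraries that stood apart (0.0455) and without cSNX1.3 replicate 1 (0.0419). SNX1 (-0.18, SE 0.09, edgeR adjusted p = 0.259) and SNX2 (-0.23, SE 0.09, edgeR adjusted p = 0.168) did not pass the test either.

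EGF replicate 2 and cSNX1.3 replicate 1 stood apart from the other libraries of their groups. The chi-square per degree of freedom between replicates was 18.8 and 24.4 for the pairs with EGF replicate 2 and 15.6 and 22.5 for the pairs with cSNX1.3 replicate 1, against 3.58 and 5.86 for the remaining pair of each group. In both libraries the deviation of a gene from its group mean fell with transcript length (Spearman's rho across genes -0.235 and -0.172), whereas rho was between 0.042 and 0.192 in the other 4. Without both, 818 genes were called, 458 higher and 360 lower, and 712 of the 956 genes called with them were among these. All 956 kept their sign, but the groups did not overlap in 953 of them. Leaving out libraries could therefore hardly change a sign. In bulk RNA, fewer cells of a kind and less RNA per cell cannot be told apart.

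Of 15738 genes tested, 956 were called at a Benjamini-Hochberg adjusted p under 0.05 by edgeR's quasi-likelihood test, 532 higher and 424 lower with cSNX1.3 than with EGF alone. The shares of all genes tested were 6.07% for either direction, 3.38% for higher and 2.69% for lower, and every list described here is read against them. The called genes changed by a median of 1.5-fold, and the median log2 fold change of all genes was 0.002. The libraries of both groups did not overlap in 953 of the 956 called genes, against 26.4% of all genes. Protein-coding genes made up 879 of the calls, 502 higher and 377 lower, and 12971 of the genes tested. The count fell to 531 when EGF replicate 1 was left out, to 592 for EGF replicate 3 and to 526 for cSNX1.3 replicate 2, and was 866 and 892 when EGF replicate 2 or cSNX1.3 replicate 1, the libraries that stood apart, was left out. A fit with 1 library fewer also has fewer replicates to estimate the spread. The number of called members that remained called, in the same direction, in all 15 alternative settings (other scalings, filters and tools, and left-out libraries) that tested them is given for most lists. DESeq2 called more genes in all, 1167, with 675 higher and 492 lower. Its counts for a list, where given, have that larger base.

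**Figure D1:**
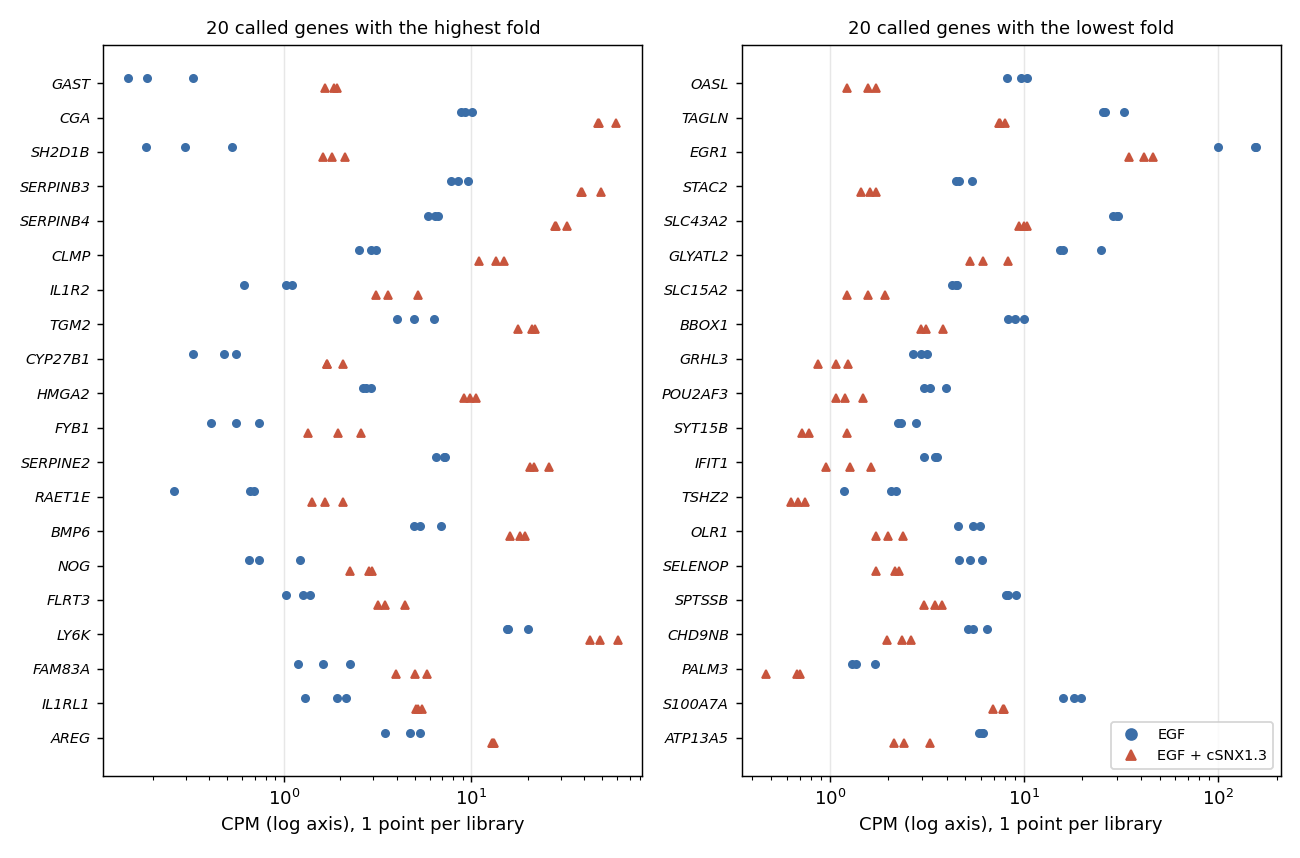
CPM on a log axis in each of the 3 EGF (circles) and 3 EGF + cSNX1.3 (triangles) libraries, for the 20 called protein-coding genes with the highest (left) and the 20 with the lowest (right) log2 fold change of those averaging 1 CPM or more over the 6 libraries and without overlap between the groups. The groups lie apart in every gene, as the selection required, and the spread within a group differs between genes. OASL was at 8.17 to 10.4 CPM with EGF and 1.23 to 1.74 CPM with cSNX1.3. SH2D1B was at 0.1845 to 0.531 CPM with EGF and 1.61 to 2.12 CPM with cSNX1.3.

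The 20 largest rises held hormones, protease inhibitors, receptors and their ligands. GAST, the precursor of gastrin (log2 fold change 3.04), was followed by CGA, which encodes the alpha subunit shared by glycoprotein hormones, at 8.86, 10.1 and 9.23 CPM with EGF and 59.5, 48.3 and 47.8 CPM with cSNX1.3 (log2 fold change 2.46, SE 0.15, edgeR adjusted p = 1.57e-07). SERPINB3 and SERPINB4, inhibitors of serine and cysteine proteases that were first known as squamous cell carcinoma antigens, were close behind. CLMP, an adhesion molecule of epithelial junctions, was at 2.53, 2.93 and 3.1 CPM with EGF and 14.9, 11.1 and 13.6 CPM with cSNX1.3 (log2 fold change 2.20, SE 0.19, edgeR adjusted p = 3.02e-06). Where only 2 sets of values follow, the first are EGF replicates 1 to 3 and the second cSNX1.3 replicates 1 to 3. TGM2, which crosslinks proteins of the matrix, was at 4.94, 6.35 and 4.02 against 21.2, 22 and 17.9 CPM (log2 fold change 1.99, SE 0.16, edgeR adjusted p = 2.44e-06). HMGA2, a chromatin protein of embryonic and tumor cells, was at 2.73, 2.93 and 2.66 against 9.82, 9.19 and 10.6 CPM (log2 fold change 1.83, SE 0.19, edgeR adjusted p = 3.5e-05). In each of these genes the lowest cSNX1.3 library was above the highest EGF library, as the selection of the 20 required. CYP27B1, the enzyme that makes the active form of vitamin D, rose from 0.454 to 1.82 CPM (means of 3; log2 fold change 1.98, SE 0.35, edgeR adjusted p = 0.00212). The intracellular adaptors SH2D1B (log2 fold change 2.45) and FYB1 (1.78), both known from lymphocytes, rose from under 1 CPM in every EGF library, as 13, 8 and 5 counts and 47, 39 and 50 counts for SH2D1B. FLRT3 (1.60), a membrane protein of the FGF pathway, and FAM83A (1.56), a scaffold described downstream of EGFR, were also among the 20. RAET1E (1.66), a ligand of the NK cell receptor NKG2D, lost its call without both libraries that stood apart (edgeR adjusted p = 0.106).

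The 20 largest falls were led by OASL, an interferon-induced protein related to oligoadenylate synthetases, at 10.4, 8.17 and 9.7 CPM with EGF and 1.58, 1.74 and 1.23 CPM with cSNX1.3 (log2 fold change -2.64, SE 0.22, edgeR adjusted p = 2.44e-06). TAGLN, an actin-binding protein and target of the factor SRF, was at 26.1, 32.7 and 25.5 against 8.02, 7.49 and 7.43 CPM (log2 fold change -1.88, SE 0.13, edgeR adjusted p = 5.58e-07). EGR1, an immediate early transcription factor, was at 155, 99.8 and 157 CPM with EGF and 34.9, 41.5 and 46.1 CPM with cSNX1.3 (log2 fold change -1.75, SE 0.22, edgeR adjusted p = 0.000567). EGF replicate 2, one of the libraries that stood apart, held the lowest EGR1 level of its group. It lay above every cSNX1.3 library, as the selection of the 20 required. Proteins of transport and metabolism followed. SLC43A2, a transporter of large neutral amino acids, was at 30.1, 30.6 and 28.6 against 9.41, 10.4 and 9.97 CPM (log2 fold change -1.58, SE 0.11, edgeR adjusted p = 5.58e-07). SLC15A2, a peptide transporter, had a log2 fold change of -1.50 (SE 0.19), and BBOX1, the last enzyme of carnitine synthesis, of -1.47 (SE 0.14). SELENOP, the secreted carrier of selenium, fell from 5.31 to 2.06 CPM, and SPTSSB, a small subunit of serine palmitoyltransferase, from 8.46 to 3.45 CPM. STAC2 (-1.59), GLYATL2 (-1.52), OLR1 (-1.39), the receptor of oxidized LDL, POU2AF3 (-1.44), SYT15B (-1.40), CHD9NB (-1.29), S100A7A (-1.24) and ATP13A5 (-1.22) were also among them. PALM3 (-1.25, edgeR adjusted p = 0.0175) lost its call without EGF replicate 1 (adjusted p = 0.0866) or cSNX1.3 replicate 3 (0.0861), whereas the calls of the other 19 stood in every alternative that tested them.

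**Figure D2:**
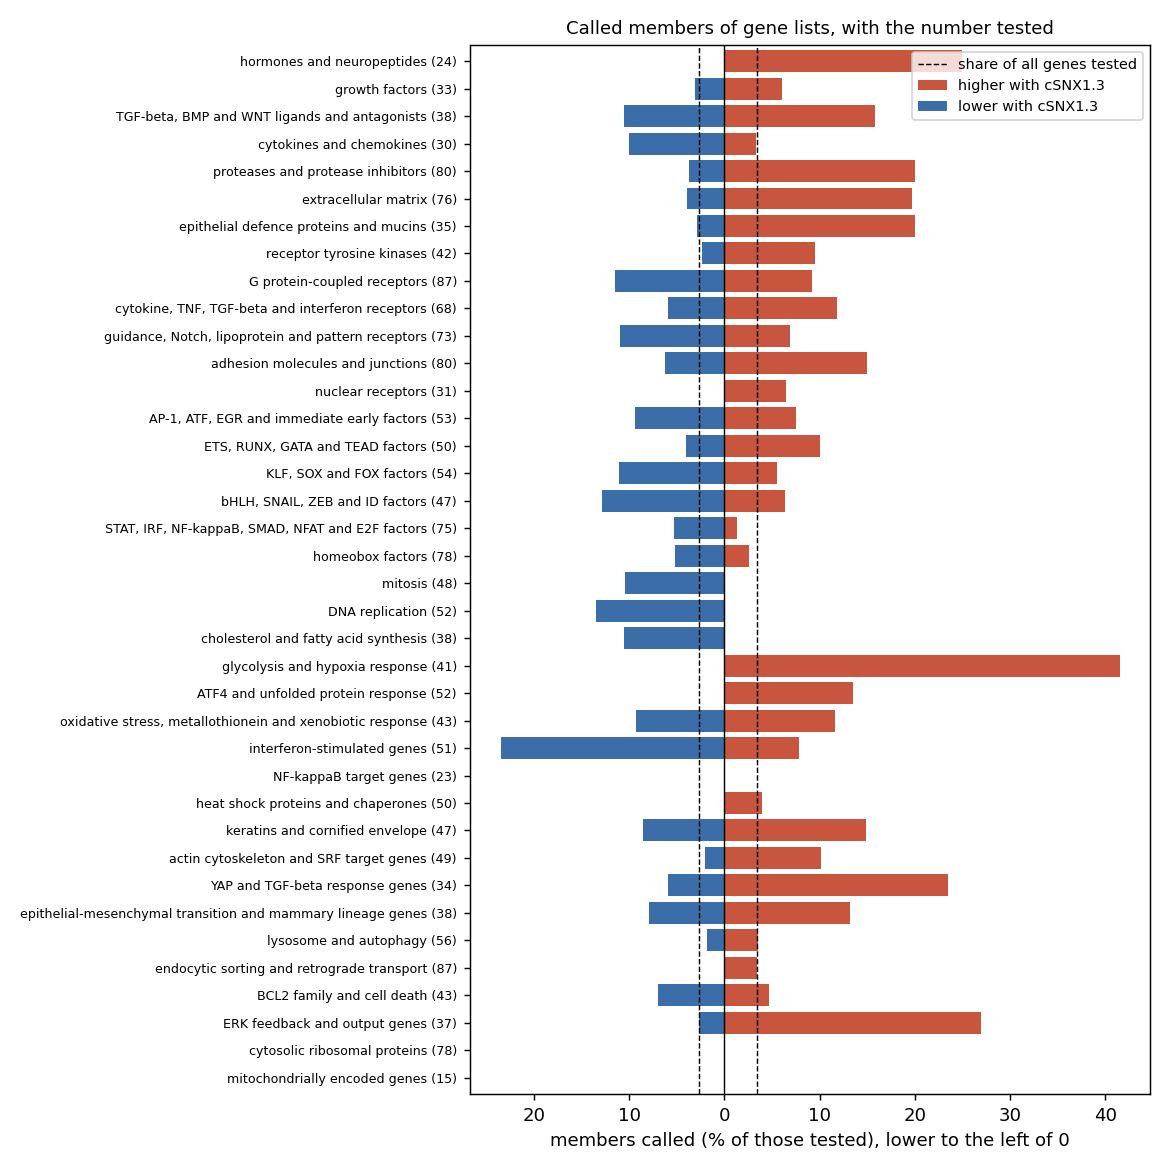
For hand-written gene lists, the percentage of its tested members (number in brackets) called higher (red, to the right of 0) or lower (blue, to the left) with cSNX1.3, with the share of all genes tested as dashed lines at 3.38% and 2.69%. The glycolysis and hypoxia list reaches furthest to the right and the interferon-stimulated list furthest to the left.

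Among secreted signalling proteins, hormones were called higher in 6 of 24 tested genes and lower in 0 (median log2 fold change 0.13), and all 6 calls stood in every alternative. Besides GAST and CGA these were the stanniocalcins STC1 and STC2, glycoproteins known for calcium and phosphate handling, ADM, the vasodilator adrenomedullin, and INHBA, the beta A chain of inhibin and activin. STC1 was at 65.1, 57.2 and 62.9 CPM with EGF and 101, 106 and 106 CPM with cSNX1.3 (log2 fold change 0.76, SE 0.10, edgeR adjusted p = 0.0002). STC2 was at 198, 161 and 187 against 248, 303 and 275 CPM (log2 fold change 0.60, SE 0.10, edgeR adjusted p = 0.00115). ADM rose from 19.1 to 30.2 CPM and INHBA from 31.6 to 44 CPM. The groups did not overlap in any of the 6, as in 953 of all 956 called genes.

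Of 33 growth factors, 2 were called higher and 1 lower (median 0.11, from 0.0307, leaving out EGF replicate 2, to 0.1768, leaving out cSNX1.3 replicate 1). AREG, a ligand of EGFR, was at 4.73, 3.45 and 5.35 CPM with EGF and 13.1, 12.9 and 13.3 CPM with cSNX1.3 (log2 fold change 1.54, SE 0.15, edgeR adjusted p = 2.15e-05), and HBEGF, a further EGFR ligand, at 7.18, 7.87 and 6.61 against 12.9, 15.6 and 12.5 CPM (log2 fold change 0.92, SE 0.14, edgeR adjusted p = 0.000544). CCN2, a matrix-associated growth factor, was lower (-0.49, edgeR adjusted p = 0.0318), a call that was lost without EGF replicate 1 (adjusted p = 0.0726), EGF replicate 3 (0.18), cSNX1.3 replicate 2 (0.149) or cSNX1.3 replicate 3 (0.0857).

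Ligands and antagonists of the TGF-beta, BMP and WNT pathways moved in both directions, with 6 of 38 called higher and 4 lower (median 0.11), and 6 of these 10 stood in every alternative. BMP6 was at 5.31, 6.94 and 4.94 CPM with EGF and 19.5, 18.2 and 16.1 CPM with cSNX1.3 (log2 fold change 1.64, SE 0.19, edgeR adjusted p = 9.28e-05), and NOG, which encodes the BMP antagonist noggin, at 0.653, 0.743 and 1.22 against 2.25, 2.86 and 2.97 CPM (log2 fold change 1.62, SE 0.27, edgeR adjusted p = 0.00151). BMP3, in contrast, had 17, 23 and 25 counts with EGF and 4, 6 and 5 counts with cSNX1.3 (edgeR adjusted p = 0.00237). WNT9A rose from 16.4 to 37.8 CPM (log2 fold change 1.21, SE 0.13, edgeR adjusted p = 4.31e-05). WNT6 was at 129.6, 144 and 147 CPM with EGF and 80, 78.4 and 72.7 CPM with cSNX1.3 (log2 fold change -0.86, SE 0.13, edgeR adjusted p = 0.000544), and WNT10A at 34.9, 37.5 and 35.7 against 17.7, 18.1 and 16.8 CPM (log2 fold change -1.04, SE 0.10, edgeR adjusted p = 2.19e-05), so 2 of the called WNT ligands were lower and 1 higher. DKK1, a WNT antagonist, rose from 16.8 to 25.3 CPM (edgeR adjusted p = 0.00845), with adjusted p = 0.0566 without both libraries that stood apart. Of 30 cytokines and chemokines tested, 1 was called higher and 3 lower. CXCL10, a chemokine induced by interferon, had 21, 13 and 20 counts with EGF and 2, 0 and 3 counts with cSNX1.3 (edgeR adjusted p = 0.00505). IL34, a ligand of the receptor CSF1R, had 17, 32 and 27 against 7, 3 and 4 counts (edgeR adjusted p = 0.00259).

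Proteases and their inhibitors were called higher in 16 of 80 tested members and lower in 3 (median 0.09), and 16 of the 19 calls stood in every alternative. Inhibitors of the serpin family led the list. Of 9 clade B serpins tested, intracellular inhibitors that lie in clusters on chromosomes 6 and 18, 7 were called higher and 0 lower, and their median log2 fold change was 1.32. SERPINB3 was at 7.8, 9.65 and 8.56 CPM with EGF and 49.1, 38.4 and 39.1 CPM with cSNX1.3 (log2 fold change 2.28, SE 0.18, edgeR adjusted p = 2.48e-06), and SERPINB4 at 6.65, 6.39 and 5.87 against 32.6, 28.5 and 27.9 CPM (log2 fold change 2.23, SE 0.13, edgeR adjusted p = 1.55e-07). These paralogs are nearly identical, and the counting could have divided or dropped the reads they share, or counted them for both. Their rises may therefore not be separate. SERPINB7 was at 57.4, 66.7 and 57.3 against 175, 139.7 and 139 CPM (log2 fold change 1.32, SE 0.11, edgeR adjusted p = 2.44e-06), and SERPINB1, an inhibitor of neutrophil proteases, at 253, 309.6 and 239 against 791, 649.8 and 645 CPM (log2 fold change 1.38, SE 0.12, edgeR adjusted p = 2.86e-06). SERPINB2, also known as plasminogen activator inhibitor 2, had a log2 fold change of 1.52 (SE 0.21), SERPINB5, the protein maspin, of 0.73 (SE 0.14) and SERPINB6 of 0.53 (SE 0.09). SERPINB8 (0.46, edgeR adjusted p = 0.163) and SERPINB9 (-0.08, edgeR adjusted p = 0.905) did not pass the test. By DESeq2 the list gave 16 and 3 calls in the 2 directions.

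Genes with roles in plasminogen activation or coagulation were not kept as a list, and those named here, apart from FGB, are in this or other lists. PLAT, tissue-type plasminogen activator, was at 5.18, 4.72 and 4.17 CPM with EGF and 14.6, 10.6 and 11.7 CPM with cSNX1.3 (log2 fold change 1.39, SE 0.16, edgeR adjusted p = 7.42e-05). SERPINE2, which inhibits thrombin and plasminogen activators, was at 7.27, 7.17 and 6.53 against 26, 20.7 and 21.7 CPM (log2 fold change 1.70, SE 0.13, edgeR adjusted p = 2.44e-06). F3, tissue factor, the starter of coagulation, was at 102, 94.1 and 107 against 161, 178 and 178 CPM (log2 fold change 0.77, SE 0.10, edgeR adjusted p = 0.000218). PLAUR, the receptor of urokinase, rose from 50.8 to 78.8 CPM (edgeR adjusted p = 0.000434) and SERPINA1, the inhibitor of neutrophil elastase, from 4.67 to 10.9 CPM (edgeR adjusted p = 0.000163). FGB, the beta chain of fibrinogen, which is in none of the lists and was picked after its values were seen, was at 3.22, 4.27 and 3.76 against 11.7, 11.5 and 7.83 CPM (log2 fold change 1.45, SE 0.19, edgeR adjusted p = 0.000207). Of the proteases, PRSS22, PRSS23 and the cathepsin CTSV rose by 0.61, 0.53 and 0.54 on the log2 scale. The transmembrane serine proteases TMPRSS2 (-0.67, SE 0.09) and TMPRSS3 (-0.58, SE 0.09) were called lower. MMP7, a metalloproteinase of epithelia, was lower (-0.42, edgeR adjusted p = 0.0167) but not called without EGF replicate 2 (adjusted p = 0.078), cSNX1.3 replicate 2 (0.0582) or cSNX1.3 replicate 3 (0.077).

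Of 76 extracellular matrix genes 15 were called higher and 3 lower (median 0.16). The number higher was 9 when EGF replicate 1 and 8 when cSNX1.3 replicate 2 was left out, and 8 of the 18 calls stood in every alternative. Laminins, the trimeric proteins of basement membranes, were called in 6 of 10 tested chains, all higher. LAMB3 was at 80.8, 88.1 and 83.7 CPM with EGF and 157, 146 and 145 CPM with cSNX1.3 (log2 fold change 0.83, SE 0.09, edgeR adjusted p = 5.41e-05), and LAMA3 at 9.14, 6.94 and 10.7 against 13.1, 15.1 and 18 CPM (log2 fold change 0.79, SE 0.16, edgeR adjusted p = 0.00719). LAMC1 rose from 117 to 159 CPM. LAMA4 (0.46) lost its call without cSNX1.3 replicate 2 (edgeR adjusted p = 0.0609), and LAMB1 (0.33, edgeR adjusted p = 0.0482) in 9 of the 15 alternatives. COL13A1, a transmembrane collagen, rose from 19.1 to 34.2 CPM (log2 fold change 0.84, SE 0.13, edgeR adjusted p = 0.00074), ECM1 from 6.56 to 13 CPM and LOX, which crosslinks collagen, from 8.28 to 14.4 CPM.

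Among 80 adhesion and junction genes 12 were called higher and 5 lower (median 0.05), 7 of them higher without both libraries that stood apart, and of 17 integrin chains tested 6 were called higher and 1 lower. ITGA2, a chain of the collagen receptor, was at 38.4, 34.2 and 37.4 CPM with EGF and 95.8, 83.4 and 85.9 CPM with cSNX1.3 (log2 fold change 1.27, SE 0.10, edgeR adjusted p = 2.44e-06). ITGA6 and ITGB4 form the laminin-binding integrin of hemidesmosomes. ITGB4 was at 398, 405 and 399.6 against 741, 673 and 633 CPM (log2 fold change 0.77, SE 0.10, edgeR adjusted p = 0.000266), and ITGA6 at 148, 167 and 149 against 274, 226 and 231 CPM (log2 fold change 0.66, SE 0.10, edgeR adjusted p = 0.000622). ITGA3, which also binds laminins, was at 219, 211 and 214 against 353, 367 and 358 CPM (log2 fold change 0.74, SE 0.09, edgeR adjusted p = 0.000103). ITGA5 (0.69) of the fibronectin receptor was higher as well. ITGAV, a chain of the receptors for vitronectin and latent TGF-beta, went the other way, from 280.1 to 199 CPM (log2 fold change -0.49, SE 0.10, edgeR adjusted p = 0.00689). Of the junction genes, CDH3, the P-cadherin of basal epithelium (0.60), rose, while the claudins CLDN1 (-0.48) and CLDN8 (-0.58) and the tight junction scaffold TJP3 (-0.62) fell. These 4 calls stood in every alternative that tested them.

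**Figure D3:**
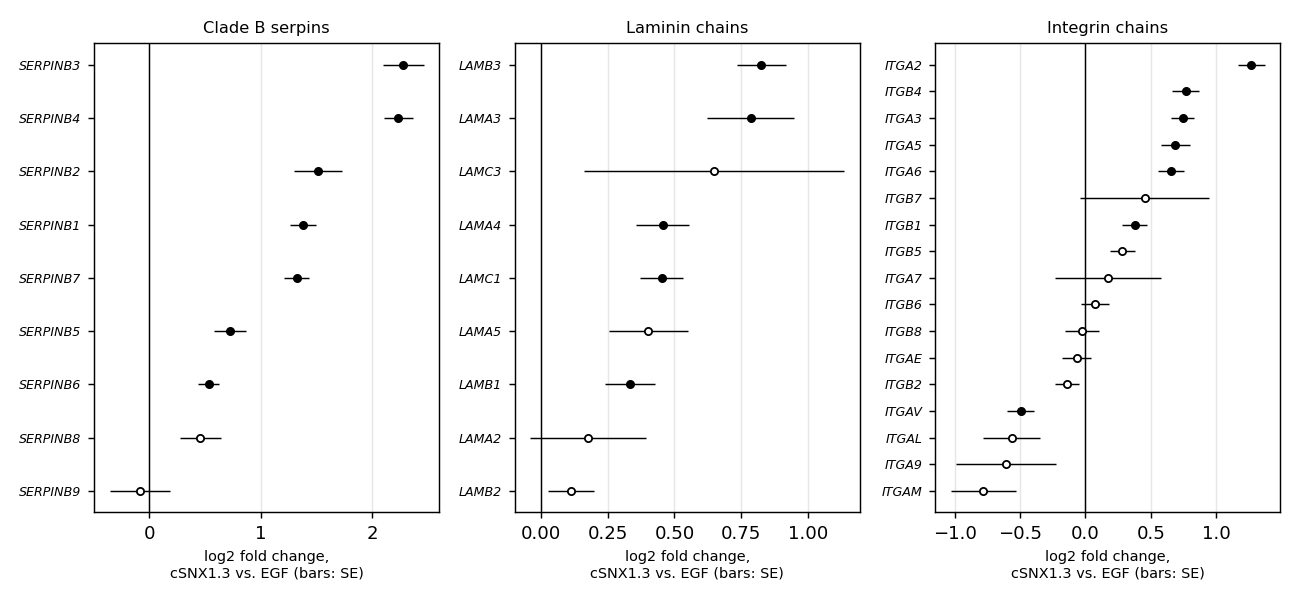
Log2 fold change with its standard error for tested clade B serpins (left), laminin chains (middle) and integrin chains (right), filled where called. Called serpins and laminins all lie to the right of 0, and ITGAV is the called integrin to its left.

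Promoters of the secreted and receptor genes that rose were searched for the AP-1 element, the sequence bound by FOS and JUN proteins, in RefSeq's windows from 250 bases before to 50 bases after each start (GRCh38.p14). The letters searched were TGANTCA on both strands. They occur in 7.76% of all 27305 promoters of the table, in 4.83% of the promoters of genes tested here, in 9.93% of those of called genes that rose and in 6.23% of those that fell. Of the genes in the secreted and receptor lists, 11 of 72 that rose, 2 of 32 that fell and 32 of 423 that were not called held it. A match describes the letters of the window and shows no binding. These windows are shown because they belong to matrix, protease and receptor genes described here as higher. The matched letters are in capitals. The strand is that of the gene, since TGANTCA matches on both strands alike. PLAUR is in the ERK feedback and output list and is not among the 11.
LAMA3 (chr18:23872884-23872913, plus strand): ctggcacaggcTGACTCAtgtgtgaagttt
ITGA5 (chr12:54419254-54419283, minus strand): cctccccgcgtTGAGTCAttcgcctctggg
F3 (chr1:94541964-94541993, minus strand): ggtggcgcggtTGAATCActggggtgagtc
PLAUR (chr19:43670337-43670366, minus strand): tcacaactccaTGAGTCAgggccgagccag
SERPINB2 (chr18:63887592-63887621, plus strand): gagtaaaatgtTGAATCActcaaaggacac
SERPINB5 (chr18:63476801-63476830, plus strand): taacttcagccTGAATCAtttctttcaatt
ECM1 (chr1:150507894-150507923, plus strand): cctggattctcTGAATCAgtttctcttgaa
IL1RL1 (chr2:102337055-102337084, plus strand): ataggaggaaaTGATTCAattatttcctct

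Surface and defence proteins of epithelia were called higher in 7 of 35 tested members and lower in 1 (median -0.0046), and all 8 calls stood in every alternative. The complement regulators were among them. CD55, which speeds the decay of complement convertases, was at 41.6, 48.9 and 43.2 CPM with EGF and 127, 97.8 and 103 CPM with cSNX1.3 (log2 fold change 1.29, SE 0.11, edgeR adjusted p = 3.02e-06). CD59, which blocks the membrane attack complex, was at 537, 657 and 526 against 999, 795 and 808 CPM (log2 fold change 0.60, SE 0.12, edgeR adjusted p = 0.00557). Other members on a GPI anchor or of the CEACAM family rose too. LY6K was at 15.5, 20.2 and 15.7 against 60.5, 48.8 and 43.1 CPM (log2 fold change 1.57, SE 0.17, edgeR adjusted p = 5.41e-05), CEACAM6 at 20.6, 25.2 and 21.7 against 60.6, 48.2 and 51.6 CPM (log2 fold change 1.25, SE 0.11, edgeR adjusted p = 6.35e-06), and CEACAM1 and LYPD3 had log2 fold changes of 0.95 and 0.86. S100P, a calcium-binding protein, rose from 139 to 224 CPM. MUC15, a membrane mucin, fell from 21.8 to 9.69 CPM (log2 fold change -1.17, SE 0.15, edgeR adjusted p = 0.000141). NT5E, the ectonucleotidase CD73 that makes adenosine, was at 349, 429 and 358 against 788, 639.7 and 627 CPM (log2 fold change 0.86, SE 0.12, edgeR adjusted p = 0.000304).

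Receptors were called in both directions. Of 68 receptors for cytokines, TNF, TGF-beta and interferons, 8 were called higher and 4 lower (median 0.04), with 9 of the 12 in every alternative. Receptors of the IL-1 family were among the rises. IL1R2, the decoy receptor of IL-1, was at 0.612, 1.11 and 1.03 CPM with EGF and 5.23, 3.1 and 3.59 CPM with cSNX1.3 (log2 fold change 2.09, SE 0.30, edgeR adjusted p = 0.000381), IL1RL1, the receptor of IL-33, at 1.92, 2.15 and 1.29 against 5.23, 5.05 and 5.47 CPM (log2 fold change 1.55, SE 0.22, edgeR adjusted p = 0.000296), and their shared coreceptor IL1RAP rose from 31.3 to 44.6 CPM. IL6R, the receptor of IL-6, rose from 2.42 to 5.82 CPM (log2 fold change 1.27, SE 0.19, edgeR adjusted p = 0.00062) and OSMR, the receptor of oncostatin M, from 81.8 to 129.8 CPM (log2 fold change 0.67, SE 0.09, edgeR adjusted p = 0.0002). IL4R (0.62) and TNFRSF10D (0.63), a decoy receptor of TRAIL, were higher. EDAR, the ectodysplasin receptor (-1.65), and IFNGR1, the ligand-binding chain of the interferon gamma receptor, were lower. IFNGR1 was at 182, 178 and 184 against 134, 126 and 131 CPM (log2 fold change -0.48, SE 0.08, edgeR adjusted p = 0.00228).

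G protein-coupled receptors were called higher in 8 of 87 and lower in 10 (median -0.12), and 6 of the 18 stood in every alternative. GPRC5A, an orphan receptor induced by retinoic acid, was at 152, 140.1 and 148 CPM with EGF and 253, 283 and 297 CPM with cSNX1.3 (log2 fold change 0.92, SE 0.09, edgeR adjusted p = 9.97e-06), and its relative GPRC5B moved the other way, at 18.3, 18.3 and 17 against 12.3, 10.8 and 10.5 CPM (log2 fold change -0.68, SE 0.10, edgeR adjusted p = 0.000622). PTGFR, the receptor of prostaglandin F2 alpha, had 6, 6 and 6 counts with EGF and 47, 21 and 51 counts with cSNX1.3 (log2 fold change 2.79). HRH1, a histamine receptor, rose (0.71), and the sphingosine-1-phosphate receptors S1PR3 (-0.51) and S1PR5 (-0.50) fell. Of 42 receptor tyrosine kinases 4 were called higher and 1 lower, but only FGFR2, lower from 18.8 to 11.7 CPM (log2 fold change -0.68, SE 0.12, edgeR adjusted p = 0.00224), was called in every alternative. MET, the receptor of hepatocyte growth factor, was at 135, 148 and 141 against 202, 175 and 175 CPM (log2 fold change 0.38, SE 0.09, edgeR adjusted p = 0.0178), with adjusted p between 0.0632 and 0.105 when EGF replicate 1, EGF replicate 3 or, among the cSNX1.3 libraries, replicate 1 was left out.

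Guidance, Notch, lipoprotein and pattern receptors with their ligands were called higher in 5 and lower in 8 of 73 (median -0.0021). Semaphorins, secreted or membrane-bound guidance cues, made up much of the falls, with 5 lower and 1 higher of 15 tested. SEMA3E was at 28.9, 29.4 and 29.1 CPM with EGF and 15.8, 14.1 and 14.9 CPM with cSNX1.3 (log2 fold change -0.97, SE 0.11, edgeR adjusted p = 5.41e-05). SEMA3A (-0.76) and SEMA3C (-0.79) were lower, SEMA5B had 36, 22 and 44 counts with EGF and 5, 5 and 6 counts with cSNX1.3, and SEMA4B (0.42) was higher. NTN4, a netrin of basement membranes, fell from 93.1 to 63.4 CPM (log2 fold change -0.55, SE 0.09, edgeR adjusted p = 0.000699). CD44, the hyaluronan receptor, was at 1726, 1927 and 1761 CPM with EGF and 3308, 2872 and 2806 CPM with cSNX1.3 (log2 fold change 0.73, SE 0.11, edgeR adjusted p = 0.000567), and was one of the 5 called protein-coding genes with the highest mean CPM. CD24, a mucin-like surface protein, was at 918, 962 and 939 against 715, 619 and 670.1 CPM (log2 fold change -0.49, SE 0.10, edgeR adjusted p = 0.00763), a call that was lost without cSNX1.3 replicate 2 (adjusted p = 0.0585).

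Of the transcription factor lists, that of AP-1, ATF, EGR and other immediate early factors had 4 of 53 members called higher and 5 lower (median 0.02). FOS and EGR1 fell while FOSL1, a FOS-related protein that persists after stimulation, rose. FOS was at 52.7, 32 and 46.4 CPM with EGF and 17.9, 19.8 and 19.2 CPM with cSNX1.3 (log2 fold change -1.20, SE 0.20, edgeR adjusted p = 0.00255). FOSL1 was at 15.7, 15.1 and 17 against 32.9, 34.8 and 37 CPM (log2 fold change 1.13, SE 0.10, edgeR adjusted p = 5.02e-06). MAFF (0.63) and MYCL (1.11) were higher, and JUN (0.16, edgeR adjusted p = 0.539) did not pass the test. TEF, a PAR bZIP factor of the circadian system, fell from 41.3 to 23 CPM (log2 fold change -0.84, SE 0.09, edgeR adjusted p = 2.84e-05). Genes known from the circadian clock, which were not kept as a list of their own, are in other lists. NPAS2, a partner of BMAL proteins, was at 19.6, 19.6 and 19.7 against 33.9, 33.1 and 36.1 CPM (log2 fold change 0.81, SE 0.10, edgeR adjusted p = 0.000151), and BMAL2 rose by 0.60 (SE 0.09), whereas PER2, PER3, CRY2 and DBP, called lower, and NR1D1, called higher, lost their calls in 5 to 9 of the 15 alternatives.

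Other factors that rose in every alternative were ETS1 (from 129.8 to 209.8 CPM, log2 fold change 0.69, SE 0.08, edgeR adjusted p = 5.9e-05), KLF6 (0.67), KLF4 (0.53) and SMAD3 (0.47). Several factors fell in every alternative. GRHL3, a factor of the epidermal barrier, was at 2.94, 3.16 and 2.69 CPM with EGF and 1.08, 1.24 and 0.87 CPM with cSNX1.3 (log2 fold change -1.47, SE 0.20, edgeR adjusted p = 0.000219). ZNF750, a regulator of keratinocyte differentiation, was at 13.5, 10.8 and 12.7 against 5.5, 6.46 and 6.45 CPM (log2 fold change -1.004, SE 0.13, edgeR adjusted p = 0.000187). ID4, an inhibitor of bHLH factors, fell from 53.1 to 36.3 CPM (log2 fold change -0.55, SE 0.08, edgeR adjusted p = 0.000574), and IRX6 (-0.67), SMAD1 (-0.58), NFATC4 (-1.13), CEBPA (-0.64), SP6 (-0.54), FOXI1 (-0.55) and TSHZ2 (-1.39) were lower. Nuclear receptors (2 higher and 0 lower of 31) and the STAT, IRF, NF-kappaB, SMAD, NFAT and E2F list (1 and 4 of 75) had a share of calls near that of all genes. Of 476 ZNF genes 2 were called higher and 5 lower, a share below that of all genes in either direction.

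Glycolysis and the hypoxia response had the highest share of calls among the lists, with 17 of 41 members called higher, 0 lower and all 41 fitted changes above 0 (median 0.32). DESeq2 called 19 and 0 in the 2 directions, edgeR called 11 higher without EGF replicate 1, and 11 of the calls stood in every alternative. Kinases that set the flux into glycolysis were among them. PFKFB3, which makes the activator of phosphofructokinase, was at 85.4, 77.1 and 85.9 CPM with EGF and 167, 176 and 165 CPM with cSNX1.3 (log2 fold change 1.03, SE 0.08, edgeR adjusted p = 2.44e-06). PFKFB4 was at 30.5, 27.1 and 29.4 against 48.2, 48.1 and 46.8 CPM (log2 fold change 0.72, SE 0.09, edgeR adjusted p = 0.00018), HK2, the inducible hexokinase, at 118, 113 and 126 against 188, 199 and 180.2 CPM (log2 fold change 0.67, SE 0.08, edgeR adjusted p = 0.000138), and PFKP, the platelet-type phosphofructokinase, at 467, 522 and 454 against 791, 697 and 645 CPM (log2 fold change 0.56, SE 0.10, edgeR adjusted p = 0.00296). SLC16A3, the lactate exporter MCT4, rose from 48.5 to 79.5 CPM. NDRG1, a marker of hypoxia, was at 216, 225 and 214 against 414, 391 and 362 CPM (log2 fold change 0.83, SE 0.09, edgeR adjusted p = 3.65e-05). CA9, the hypoxia-induced carbonic anhydrase, rose from 217 to 318 CPM, ENO2 by 0.61 and ERO1A by 0.46 on the log2 scale. The enzymes LDHA, PGK1 and GAPDH did not pass the test, with log2 fold changes of 0.10 for LDHA (SE 0.12), 0.23 for PGK1 (SE 0.11) and 0.03 for GAPDH (SE 0.12), nor did VEGFA (0.23, SE 0.09, edgeR adjusted p = 0.164).

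Neighbouring metabolic and stress lists had lower shares of calls. The ATF4 and unfolded protein response list had 7 of 52 called higher and 0 lower (median 0.11), among them HSPA5, the chaperone BiP of the endoplasmic reticulum, at 366, 458 and 375 CPM with EGF and 753, 585 and 525 CPM with cSNX1.3 (log2 fold change 0.64, SE 0.13, edgeR adjusted p = 0.00505), its partner HYOU1 (0.45) and SESN2 (0.45). Metallothioneins, small proteins that bind zinc and copper, were called higher in 3 of 4 tested genes. MT2A was at 479.5, 539 and 457 against 812, 853 and 694 CPM (log2 fold change 0.68, SE 0.12, edgeR adjusted p = 0.00249), and MT1X at 28.7, 32.9 and 27.8 against 51.5, 50 and 49 CPM (log2 fold change 0.75, SE 0.14, edgeR adjusted p = 0.00445). Reads shared among these paralogs could have been divided between them or counted for each. SLC30A1, the zinc exporter of the plasma membrane, rose from 35 to 62.9 CPM (log2 fold change 0.85, SE 0.11, edgeR adjusted p = 0.0002). Cholesterol and fatty acid synthesis had 0 of 38 called higher and 4 lower (median -0.12), of which TM7SF2, a sterol reductase, at 69.2, 74.7 and 69.7 against 48, 40 and 38.3 CPM (log2 fold change -0.76, SE 0.13, edgeR adjusted p = 0.0015), was called in every alternative. SCD, stearoyl-CoA desaturase, was at 2504, 2538 and 2537 against 1905, 1907 and 1876 CPM (log2 fold change -0.41, SE 0.10, edgeR adjusted p = 0.0199), with adjusted p between 0.06 and 0.0818 with EGF replicate 1 or 3 or cSNX1.3 replicate 2 or 3 removed. ALDH1A3, which makes retinoic acid, rose from 192 to 277 CPM (log2 fold change 0.53, SE 0.08, edgeR adjusted p = 0.000721), against 5 aldehyde dehydrogenases and aldo-keto reductases that were lower of 26. Of these 6 calls 2 stood in every alternative, those of ALDH1A3 and of ALDH3B2, which was lower.

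Interferon-stimulated genes had 12 of 51 members called lower and 4 higher (median -0.18), and 10 of these 16 stood in every alternative. Besides OASL and CXCL10 the falls included the IFIT proteins, which bind foreign RNA. IFIT1 was at 3.47, 3.04 and 3.58 CPM with EGF and 1.62, 0.952 and 1.27 CPM with cSNX1.3 (log2 fold change -1.40, SE 0.24, edgeR adjusted p = 0.00164), IFIT2 at 10.3, 10.5 and 11 against 6.26, 5.22 and 5.29 CPM (log2 fold change -0.93, SE 0.14, edgeR adjusted p = 0.00055), and IFIT3 at 16.9, 16.1 and 18.2 against 9.14, 9.81 and 9.78 CPM (log2 fold change -0.83, SE 0.12, edgeR adjusted p = 0.000523). IFI44 was at 14.1, 15 and 17.6 against 7.79, 8.07 and 7.54 CPM (log2 fold change -1.001, SE 0.12, edgeR adjusted p = 0.000114), and TRIM22 (-0.89), the GTPases GBP2 (-0.72) and MX1 (-0.46) were lower. The rises were those of ISG20, an exonuclease, at 11.2, 15.9 and 11.4 against 36.7, 24.6 and 25.8 CPM (log2 fold change 1.18, SE 0.16, edgeR adjusted p = 0.000264), of OAS1 (0.46), DDX60L (0.50) and SAMD9 (0.40). The call of OAS1 was lost without EGF replicate 1 (adjusted p = 0.0674), that of DDX60L in 6 of 15 alternatives (up to 0.179, without both libraries that stood apart) and that of SAMD9 in 8 (up to 0.132, in the same fit). ISG15 (0.18, edgeR adjusted p = 0.478) did not pass the test. The NF-kappaB target list had 0 calls of 23 genes by edgeR, with 7 at an unadjusted p under 0.05, and 2 and 1 higher and lower by DESeq2. No share of all genes at that unadjusted threshold is given here, so the 7 are a description.

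**Figure D4:**
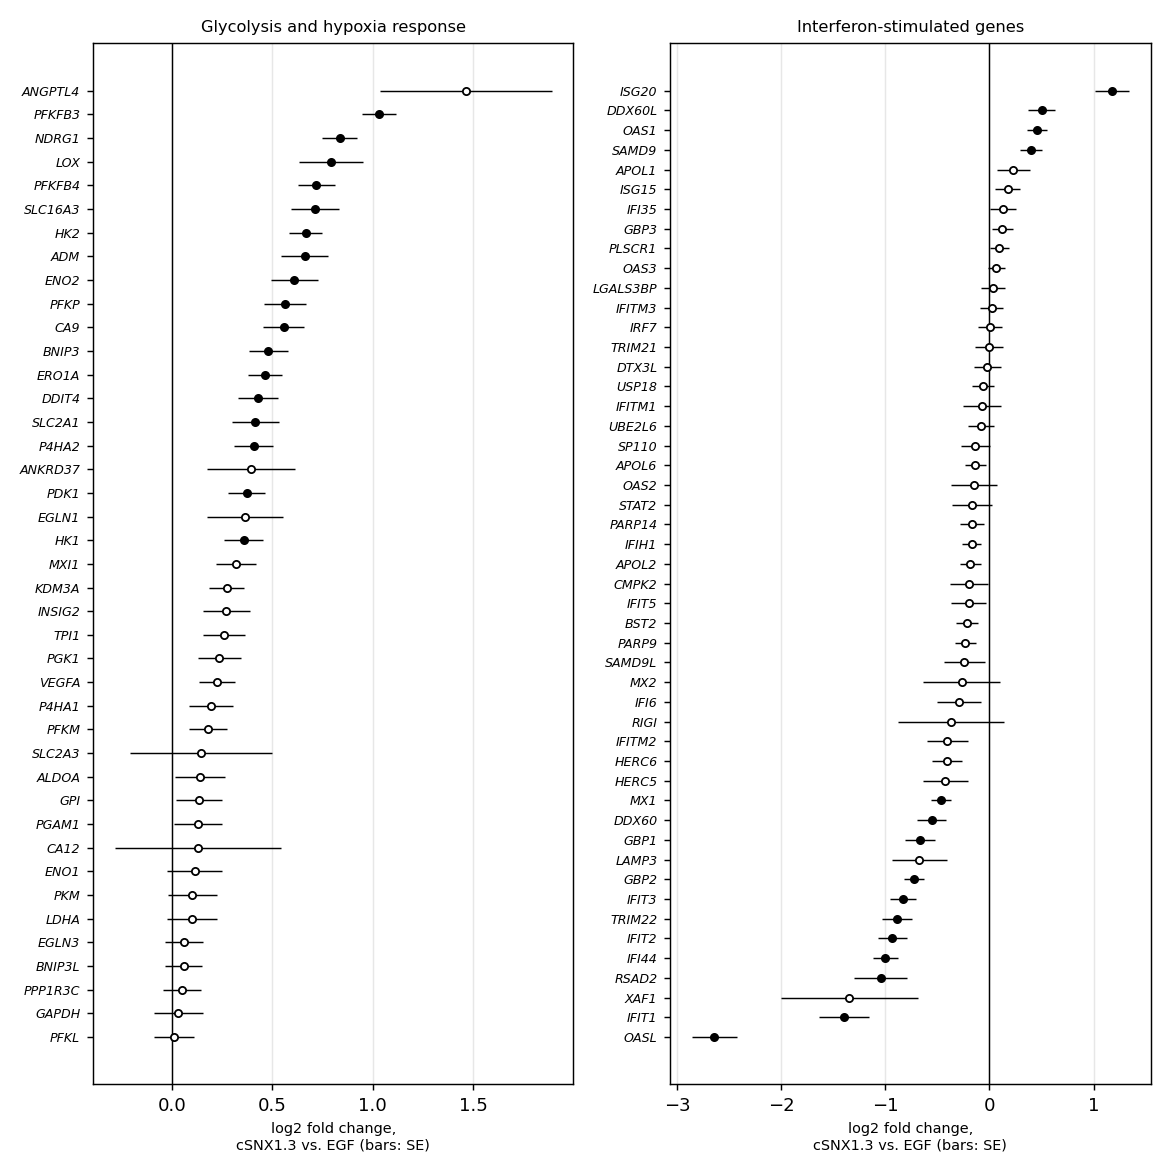
Log2 fold change with its standard error for tested members of the glycolysis and hypoxia list (left) and the interferon-stimulated list (right), filled where called. All members on the left lie above 0, while the called members on the right lie on both sides of 0, and CXCL10, at no more than 3 counts in every cSNX1.3 library, is left out.

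The interferon-stimulated response element, bound by STAT and IRF proteins, was searched in the same promoter windows on both strands as the letters GAAA, any 2 letters and GAAA again. It occurs in 3.65% of all promoters of the table, in 2.7% of those of genes tested, in 5.25% of those of called genes that fell and in 2.18% of those that rose. Of the interferon-stimulated genes with a promoter in the table, 7 of 8 that fell, 3 of 4 that rose and 15 of 25 that were not called held it. The windows of the 7 that fell and the 3 that rose are shown to set the element beside the direction of change, with the matched letters in capitals. The first 7 genes fell and the last 3 rose.
CXCL10 (chr4:76023699-76023728, minus strand): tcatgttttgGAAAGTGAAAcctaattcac
DDX60 (chr4:168318821-168318850, minus strand): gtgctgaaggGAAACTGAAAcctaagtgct
GBP1 (chr1:89065316-89065345, plus strand): agagtaatatGAAACTGAAAgtacttcgtt
IFI44 (chr1:78649761-78649790, minus strand): tcagagaaagGAAACTGAAActcagtgtgc
IFIT1 (chr10:89392510-89392539, minus strand): gaaacctaggGAAACCGAAAggggaaagtg
IFIT3 (chr10:89327865-89327894, minus strand): gaggaaactgGAAAGTGAAActaatttaaa
MX1 (chr21:41420559-41420588, plus strand): gagcagaaatGAAACCGAAActgaattgtc
ISG20 (chr15:88638937-88638966, plus strand): taacaaactaGAAACTGAAAcagggtcggg
DDX60L (chr4:168480553-168480582, minus strand): gaaaactgcgGAAATCGAAAaggcctcgcg
SAMD9 (chr7:93118096-93118125, minus strand): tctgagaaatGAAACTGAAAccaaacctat

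Genes of proliferation were called lower or not at all, with small changes. Of 48 mitosis genes 0 were called higher and 5 lower (median -0.18), and of 52 DNA replication genes 0 and 7 (median -0.15). At an unadjusted p under 0.05 none was higher, and 21 and 15 were lower, and DESeq2 called 8 and 9 lower. The share of all genes at that unadjusted threshold is not given here, so the 21 and 15 are descriptions. Of the edgeR calls 0 of 5 and 1 of 7 stood in every alternative. CCNB2, a cyclin of mitosis, was at 63, 67.9 and 65.3 against 53.2, 49.4 and 51 CPM (log2 fold change -0.35, SE 0.08, edgeR adjusted p = 0.0139) and lost its call without EGF replicate 3 (adjusted p = 0.061), cSNX1.3 replicate 2 (0.077) or cSNX1.3 replicate 3 (0.0574). Of 78 cytosolic ribosomal protein genes and 15 mitochondrially encoded genes none was called by edgeR or DESeq2, and none had an unadjusted p under 0.05 by edgeR. Endocytic sorting genes, among which SNX1 belongs, had 3 of 87 called higher and 0 lower, a share of calls under that of all genes. SNX9, which acts with dynamin at clathrin-coated pits, rose from 63.7 to 89.3 CPM (log2 fold change 0.49, SE 0.08, edgeR adjusted p = 0.00125), and CBLB, a ubiquitin ligase of receptors, from 14.9 to 21.6 CPM (log2 fold change 0.54, SE 0.11, edgeR adjusted p = 0.00805). Heat shock proteins and chaperones had 2 of 50 called higher, of which HSPA6, the strictly inducible HSP70, had 1, 5 and 2 counts with EGF and 11, 14 and 26 counts with cSNX1.3, and 0 of the 2 stood in every alternative. Of 43 genes of the BCL2 family and cell death 2 were called higher and 3 lower. BCL2L11 (-0.45), BMF (-0.45) and CASP10 (-0.38) were the lower ones, and lost their calls in 4, 8 and 6 of the 15 alternatives. MLKL, the executor of necroptosis (0.64), and GSDMC (0.62) rose in every alternative.

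Among structural genes, keratins and cornified envelope proteins had 7 of 47 called higher and 4 lower (median 0.04). KRT6A, a keratin of wounded and hyperproliferative epithelium, was at 572, 782 and 561 CPM with EGF and 1432, 1201 and 1126 CPM with cSNX1.3 (log2 fold change 0.97, SE 0.15, edgeR adjusted p = 0.0006), and its near-identical paralogs KRT6B (0.94) and KRT6C (1.01), with which it can share reads, moved with it. KRT79 fell from 5.98 to 2.73 CPM (log2 fold change -1.13, SE 0.17, edgeR adjusted p = 0.000622). KRT18, the simple epithelial keratin, was at 1500, 1882 and 1424 against 2786, 2208 and 2122 CPM (log2 fold change 0.57, SE 0.13, edgeR adjusted p = 0.0138) and was not called in the fit of the 6 libraries alone (adjusted p = 0.0533) nor without EGF replicate 1 (0.0829) or EGF replicate 3 (0.0807). Of 49 genes of the actin cytoskeleton and targets of SRF, 5 rose and TAGLN alone was called lower. MSN, moesin, which links actin to the membrane, was at 470.5, 529.6 and 467 against 777, 719.8 and 687 CPM (log2 fold change 0.57, SE 0.09, edgeR adjusted p = 0.00106). VIM, vimentin, was at 38.4, 44.9 and 39 against 70, 60.5 and 65.2 CPM (log2 fold change 0.68, SE 0.10, edgeR adjusted p = 0.000387), while CDH1, E-cadherin, was at 91.9, 94.7 and 90.8 against 90.6, 82 and 80.6 CPM and did not pass the test (log2 fold change -0.13, SE 0.08, edgeR adjusted p = 0.418).

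Genes known to respond to YAP or TGF-beta had 8 of 34 called higher and 2 lower (median 0.13), with 3 of the 10 in every alternative, and the list shares F3 and CCN2 with others named here. PMEPA1, an inhibitor of TGF-beta signalling, was at 128, 127 and 133 CPM with EGF and 189.6, 169.8 and 171 CPM with cSNX1.3 (log2 fold change 0.45, SE 0.08, edgeR adjusted p = 0.00318). AXL, a receptor tyrosine kinase, was higher (0.81) and the factors ID1 (0.41) and ID2 (-0.80) moved in opposite directions, ID2 downwards. Of 38 genes of the epithelial-mesenchymal transition and the mammary lineages 5 were called higher and 3 lower, among them PROM1, the surface marker CD133, which fell from 54.5 to 36.4 CPM (log2 fold change -0.58, SE 0.10, edgeR adjusted p = 0.00123). Cytochrome P450 enzymes, with 1 of 25 called higher and 4 lower (median -0.19), had more falls than rises, and 4 of their calls stood in every alternative.

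Solute carriers had 12 of 236 members called higher and 11 lower (median -0.02). SLC12A2, a sodium, potassium and chloride cotransporter, fell from 205 to 131 CPM (log2 fold change -0.65, SE 0.10, edgeR adjusted p = 0.000997), and SLC2A12, a glucose transporter, was lower too (log2 fold change -0.83). SLC29A1, a nucleoside transporter, rose from 53.6 to 86.3 CPM (log2 fold change 0.69, SE 0.10, edgeR adjusted p = 0.00055), and the organic anion transporters SLCO2A1, which takes up prostaglandins, and SLCO4A1 rose by 0.76 and 0.82. KCNQ5, a potassium channel, was at 10.7, 9.28 and 8.38 CPM with EGF and 19.4, 17.8 and 19.8 CPM with cSNX1.3 (log2 fold change 1.01, SE 0.14, edgeR adjusted p = 0.000279). Of 1905 lncRNAs tested 65 were called, 27 higher and 38 lower, a share below that of all genes in either direction. The 2 highest and 2 lowest log2 fold changes among the called lncRNAs were those of genes with low counts. BZW1-AS1, an antisense RNA, had 2, 8 and 6 counts with EGF and 15, 19 and 30 counts with cSNX1.3, and ENSG00000287238 had 1, 3 and 0 against 13, 18 and 13 counts. BCAR3-AS1 had 2, 16 and 10 against 2, 1 and 0 counts, and ENSG00000254290 had 9, 7 and 20 against 1, 0 and 3 counts. The groups of BCAR3-AS1 overlap. Counting was not strand specific, so reads of an antisense RNA and of its partner could not be told apart where they overlap.

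In the re-expression lines, where the nuclear localization signal of EGFR rather than its binding to SNX1 was changed, the same genes were compared as ΔNLS vs. WT, with no library in common. Of 943 called genes tested in both experiments, 610 (64.7%) were also called in ΔNLS vs. WT, where 41.6% of 15216 genes were called. These 610 made up 9.63% of the 6337 ΔNLS calls, and 375 of them (61.5%) had the opposite sign, 234 higher and 141 lower with cSNX1.3. The effect of cSNX1.3 differed from that of ΔNLS in 667 of 956 called genes (69.8%) by an interaction test in a fit of all 15 libraries, which called 23.1% of all 16524 genes it tested. Since the cSNX1.3 effect is part of both the call and the interaction, the 69.8% is a description. No share of opposite signs over all genes tested in both is given here. The 61.5% and the opposite signs by list are therefore descriptions too.

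By list, the interaction was called in all 19 of the called proteases and inhibitors, in 16 of 18 matrix genes, 13 of 17 glycolysis and hypoxia genes, 8 of 16 interferon-stimulated genes and 6 of 13 guidance receptors and ligands, and the fitted signs were opposite in 18, 14, 12, 4 and 5 of them. SERPINB4 (log2 fold change -1.83 in ΔNLS vs. WT, edgeR interaction adjusted p = 1.1e-12), TGM2 (-2.26, 7.08e-12), PLAT (-2.11, 7e-11), CD55 (-1.18, 1.76e-10), CEACAM6 (-2.85, 8.56e-14) and IL1RL1 (-2.32, 6.4e-10) had effects of opposite sign in both experiments. FGB, already named as chosen for its values, had one of the larger differences, higher by 1.45 with cSNX1.3 and at -3.96 in ΔNLS vs. WT (interaction adjusted p = 1.1e-12). Of the genes that fell, SLC43A2 (1.38, 7.08e-12), STAC2 (2.92, 2.91e-13) and TAGLN (0.97, 1.12e-09) were higher in ΔNLS. The mitosis list, with a median of -0.18 for cSNX1.3, had a median of 1.302 in ΔNLS vs. WT, and CCNB2 changed by -0.35 and 1.06 (interaction adjusted p = 3.26e-09). The interferon-stimulated list had a median of -0.18 with cSNX1.3 and -0.73 in ΔNLS vs. WT. IFIT1 changed by -1.40 with cSNX1.3 and -1.85 with ΔNLS (interaction adjusted p = 0.302), IFIT3 by -0.83 and -1.11 (0.163), and ISG20 by 1.18 and -1.07 (1.49e-07). MUC15 (-1.17 and -1.26, 0.797), SPTSSB (-1.29 and -1.25, 0.899) and WNT10A (-1.04 and -0.84, 0.276) were lower in both, and HBEGF (0.92 and 1.07, 0.683), FOSL1 (1.13 and 0.88, 0.336) and STC1 (0.76 and 0.90, 0.47) higher in both. For these 6 the interaction did not pass the threshold, which does not show that the effects are equal.

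**Figure D5:**
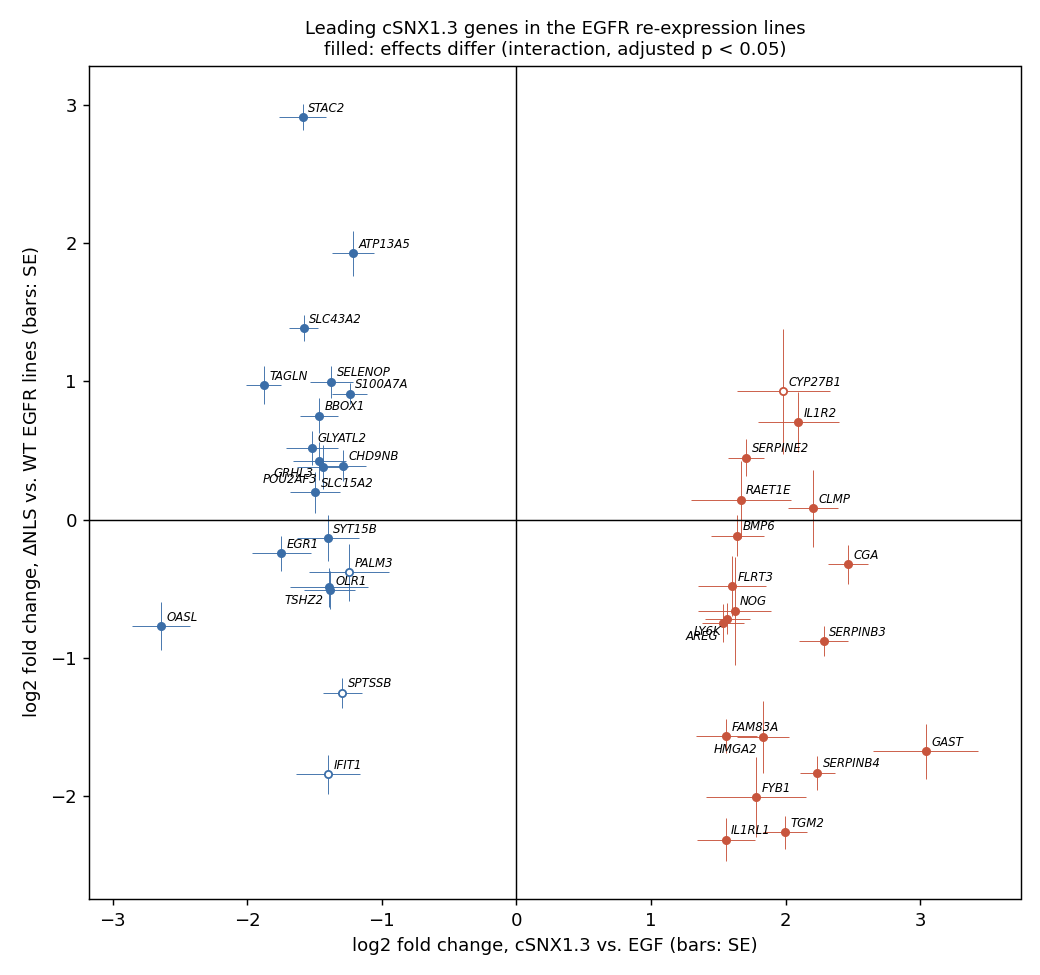
Log2 fold change of the 20 highest and 20 lowest cSNX1.3 genes (x axis, cSNX1.3 vs. EGF; without SH2D1B, which was not tested in the lines) against their log2 fold change in ΔNLS vs. WT (y axis), each with its standard error, filled where the interaction test called a difference. SERPINB4 and TGM2 lie to the lower right, SLC43A2 and STAC2 to the upper left, and IFIT1 and SPTSSB, lower in both, to the lower left.

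The values with erlotinib are set beside those of cSNX1.3, and both comparisons share the EGF libraries. Called differences between cSNX1.3 and erlotinib made up 56.1% of all genes tested, so a called difference is common here. The mean level of SERPINB7 was 60.5 CPM with EGF, 151 CPM with cSNX1.3 and 12.1 CPM with erlotinib (edgeR adjusted p of cSNX1.3 vs. erlotinib 3.11e-12). PFKFB3 was at 82.8, 169 and 36.8 CPM (adjusted p = 1.69e-11), and KRT6A at 638, 1253 and 30.6 CPM (adjusted p = 3.06e-12). SELENOP was at 5.31 CPM with EGF, 2.06 CPM with cSNX1.3 and 48.3 CPM with erlotinib (adjusted p = 3.06e-12). TAGLN was below its EGF level with both treatments, at 28.1, 7.65 and 6.58 CPM (adjusted p = 0.186), EGR1 was at 137, 40.8 and 10.6 CPM (adjusted p = 2.63e-05), and FOS at 43.7, 19 and 4.83 CPM (adjusted p = 7.6e-06). CD55 was above its EGF level with both, at 44.6, 109 and 62.1 CPM (adjusted p = 1.1e-05), as was SLC30A1 at 35, 62.9 and 83.7 CPM (adjusted p = 0.00441). The ERK feedback and output list, with a median of 0.30 for cSNX1.3, 10 called higher and 1 lower of 37, had a median of -1.90 for erlotinib vs. EGF.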

How the data were processed

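The authors sequenced RNA of MDA-MB-468 cells, trimmed paired-end reads with TrimGalore, aligned them to GRCh38 with STAR and counted them per gene with featureCounts, without regard to strand. The deposited values are raw counts per gene for 15 libraries, of which the 9 of the drug experiment entered the fit. Of the 61552 gene IDs, 61399 were matched to a GENCODE 44 symbol. Genes were filtered by filterByExpr, libraries scaled by TMM, and cSNX1.3 vs. EGF tested with edgeR 4.0.16 (robust quasi-likelihood F-test, R 4.3.3). A gene was called at a Benjamini-Hochberg adjusted p under 0.05 over all genes tested. CPM are counts per 1000000 of the TMM-scaled library size. The effect of ΔNLS vs. WT was fitted on the 6 line libraries, and the difference of both effects as an interaction on all 15.

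Genes of the hand-written lists and families were described by counts and medians, beside those of all genes. Named genes were the 20 highest and 20 lowest fold changes of called protein-coding genes averaging 1 CPM or more and without overlap between groups, the 5 with the smallest p, the 5 most abundant, leading called members of each list with others its account needs, label checks, and the 2 highest and 2 lowest non-coding genes. The lists and members were chosen with earlier results of these data known. Alternatives were DESeq2 1.42.0, other scalings and filters, fits of other libraries, correction for GC content and length, a replicate block, a threshold of 0.01 and leaving out each replicate, and, added after seeing the data, leaving out both libraries that stood apart. The fit was first tested on simulated counts. Promoter sequences are RefSeq's (GRCh38.p14). Some members of these lists and 1 list are not reported here.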

Additional observations from a re-analysis of the deposited data

How the results depend on the processing

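Of the 364 called genes named or leading a list, 204 were called in the same direction in all 15 alternatives that gave a value for them. Without both libraries that stood apart, 712 of the 956 called genes were called. All 956 had the same sign there, which the lack of overlap between the groups in 953 of them made nearly certain beforehand. The number of called genes, 956 (532 higher, 424 lower), rose to 1444 in the fit of all 15 libraries (699 lower) and to 1506 with GC and length offsets (831 higher, 675 lower), and was 470 at an adjusted p under 0.01 (282 higher, 188 lower). Leaving out 1 replicate gave 526 to 892 called genes, 295 to 512 higher and 222 to 392 lower, with the lowest counts when EGF replicate 1, EGF replicate 3 or, of the cSNX1.3 libraries, replicate 2 was left out. The number called at an absolute log2 fold change over 1 was 174, and 108 where every library had to hold at least 10 counts, a rule that tests fewer genes. Extracellular matrix genes called higher numbered 15, 9 at an adjusted p under 0.01 and 8 to 13 without 1 replicate. Adhesion and junction genes called higher numbered 12, and 7 without both libraries that stood apart, and the 17 glycolysis and hypoxia genes were 11 to 17 without 1 replicate. The cause of these shifts was not tested. The counts of proteases and inhibitors, interferon-stimulated genes, ERK output genes and of the interaction (3819) stayed within 1.5-fold in every alternative run. Of 810 list medians, 67 moved by more than the replicate spread. Most medians were close to 0, and of 54 lists 38 had a median that moved by over 1.5 times, 17 of them with a change of sign, when 1 replicate was left out, so a small median carries no direction. ERBB2, not called at -0.14, was at -0.28 to 0.021 without 1 replicate, the highest without cSNX1.3 replicate 1 (edgeR adjusted p = 0.941), and was the 1 gene whose sign changed among those followed through the alternatives, which leave out some of the genes named as not passing the test, FGB and the 4 named non-coding genes.

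The labels number replicates alike in both groups. Deviations from the group mean correlated at -0.232, -0.154 and 0.286 for the same numbers (Pearson's r across genes). The other numbers gave -0.38 to 0.434, the highest for cSNX1.3 replicate 1 with EGF replicate 2, the libraries that stood apart. Since these libraries enter the group means, the correlations cannot decide whether libraries of the same number were prepared together. With the replicate number as a block 841 genes were called, 470 higher and 371 lower, 158 over an absolute log2 fold change of 1, and 3922 in the interaction. Counts per library of 24297146 to 28462807 limited the genes with few counts.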
